A study of Homo sapiens with 2 samples.

Results

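The WNT pathway core and feedback genes were followed in RKO, an established cell line from a human colon carcinoma. The cells were collected 48 h after they received an siRNA against SRSF1 or a control siRNA. They are 10 genes listed by name, CTNNB1, APC, AXIN1, AXIN2, LEF1, TCF7, TCF7L1, TCF7L2, RNF43 and ZNRF3, out of 40205 rows of the deposited gene table. All 10 had a row. SRSF1 encodes an SR protein that regulates pre-mRNA splicing. Each group was 1 library of this line, so none of the differences has a replicate check and no p-value was calculated.

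In the canonical WNT pathway, WNT ligands bind Frizzled and LRP receptors and thereby stop the turnover of beta-catenin, the product of CTNNB1. Without ligand, a destruction complex scaffolded by APC and AXIN1 or AXIN2 marks beta-catenin for degradation. Stabilised beta-catenin enters the nucleus and acts through the DNA-binding proteins LEF1, TCF7, TCF7L1 and TCF7L2. Among its usual target genes are AXIN2, LEF1, TCF7, RNF43 and ZNRF3. AXIN2 restores the destruction complex, and RNF43 and ZNRF3 are membrane ubiquitin ligases that remove Frizzled receptors, so these genes act as feedback inhibitors. APC is the gene most often mutated in colon cancer, whereas RKO is known to carry wild-type APC and CTNNB1.

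The 3 detected transcription factor genes and APC lay modestly above their control levels in the SRSF1 siRNA library. LEF1 was at 1.40 times its control level, TCF7 at 1.27 times and TCF7L2 at 1.22 times, and APC was at 1.25 times. CTNNB1 and AXIN1 were at 0.997 and 0.984 times, and ZNRF3 was at 0.840 times, a difference within counting error. The feedback inhibitor AXIN2 lay on the other side, at 0.530 times, on few fragments. RNF43 and TCF7L1 were at or close to 0 in both libraries.

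Promoter windows of LEF1, TCF7 and TCF7L2 are shown because these genes lay on the same side and because LEF1 and TCF7 are themselves targets of the pathway. RefSeq windows on GRCh38.p14, from 250 bases before to 50 after a transcript start, were matched by symbol for 8 of the 10 genes, in 13 windows. They were searched on both strands for CTTTGAT and CTTTGTT, forms of the motif bound by TCF/LEF proteins, and no matches overlapped. A match is a description of the letters and not a binding site. Capitals mark a match in the sequences, which are written 5′ to 3′ on the strand of the gene. The LEF1 window, at a start inside the gene as annotated, is chr4:108166252-108166551 on the minus strand. The TCF7 window, at the downstream of its starts, is chr5:134123368-134123667 on the plus strand. The TCF7L2 window, at an internal start, is chr10:113126383-113126682 on the plus strand. For TCF7 and TCF7L2 the window with a match was picked, and their other windows held none. The TCF7L1 window held no match and is not printed.
LEF1: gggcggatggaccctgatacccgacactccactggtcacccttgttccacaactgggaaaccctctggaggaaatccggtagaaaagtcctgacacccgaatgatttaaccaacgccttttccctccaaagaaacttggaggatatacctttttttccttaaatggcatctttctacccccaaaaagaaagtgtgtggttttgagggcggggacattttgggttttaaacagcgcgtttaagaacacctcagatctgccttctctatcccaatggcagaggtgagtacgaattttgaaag
TCF7: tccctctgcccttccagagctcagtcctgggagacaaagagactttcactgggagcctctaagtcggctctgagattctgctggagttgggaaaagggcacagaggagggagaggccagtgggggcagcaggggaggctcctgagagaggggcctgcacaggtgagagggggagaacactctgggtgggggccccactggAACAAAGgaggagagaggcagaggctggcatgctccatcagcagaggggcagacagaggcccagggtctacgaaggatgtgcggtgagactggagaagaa
TCF7L2: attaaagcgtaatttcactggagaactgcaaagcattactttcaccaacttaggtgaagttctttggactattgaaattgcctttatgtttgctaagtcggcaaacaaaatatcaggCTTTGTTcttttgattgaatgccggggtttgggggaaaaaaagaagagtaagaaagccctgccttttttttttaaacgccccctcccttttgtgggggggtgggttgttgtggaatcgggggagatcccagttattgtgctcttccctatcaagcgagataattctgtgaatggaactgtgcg

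The motif was found in 2 of the 13 windows, those of TCF7 and TCF7L2 printed above, once in each. It begins at position -50 from the start in TCF7, on the opposite strand, and at position -133 in TCF7L2, on the strand of the gene. Of 35114 windows in the whole table, 7.61% held it. The LEF1 window held neither form, but no window at the annotated 5′ end of LEF1, 108168956, was searched. The windows also differed in CpG number, which has a median of 14 over all windows: the RNF43 windows held 0 and 5, whereas the single TCF7L1 window held 31, and both genes were at or near 0.

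SRSF1 itself had 32.7 FPKM (fragments per kilobase of a gene model, divided by the total counted for that library) in the SRSF1 siRNA library, against 103 FPKM in the control siRNA library, which left 31.7% of the control level. In GENCODE 29, 56.6% of the SRSF1 exon bases are shared with the protein-coding annotation AC015813.2 on the same strand, so this value is uncertain. Sequencing gave 61879680 reads from SRSF1 siRNA cells, with 75.9% mapped, and 64651910 reads from control siRNA cells, with 70.4% mapped. The FPKM values gave whole fragment counts with totals of 23852089 fragments in the SRSF1 siRNA library and 23138519 in the control siRNA library. Of 6 colon epithelial markers, EPCAM, KRT8, KRT18 and CDX2 had a mean of at least 1 FPKM and KRT20 and VIL1 were listed at 0, and the summed level was 110 FPKM in the SRSF1 siRNA library and 115 FPKM in the control siRNA library. None of the 5 fibroblast and 4 endothelial markers reached a mean of 1 FPKM. Of 4 leukocyte markers only LCP1 did, at 109 FPKM against 74.3 FPKM in the control siRNA library, while PTPRC and CD3E were at 0. Chromosome M took 8.39% of mapped reads in the SRSF1 siRNA library and 6.60% in the control siRNA library. The part of mapping rate, LCP1 or chromosome M in the differences of the WNT genes was not tested.

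Levels of the genes spanned from 51.5 FPKM to 0, and their order was the same in both libraries. CTNNB1 was highest, followed by AXIN1, APC, LEF1, TCF7, TCF7L2, ZNRF3, AXIN2 and RNF43, with TCF7L1 at 0. This order is per length of the gene model. With exact 95% Poisson intervals of the fragment counts, TCF7 and TCF7L2 could not be told apart in either library. AXIN1 and APC overlapped in the SRSF1 siRNA library (12.5 to 14.0 and 12.5 to 13.3 FPKM) but not in the control siRNA library (12.7 to 14.3 and 9.90 to 10.7 FPKM). These intervals, like those of the ratios, hold counting error alone, and PCR duplicates are not separate molecules. In bulk RNA, fewer cells with a transcript and less of it per cell cannot be told apart.

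**Figure D1:**
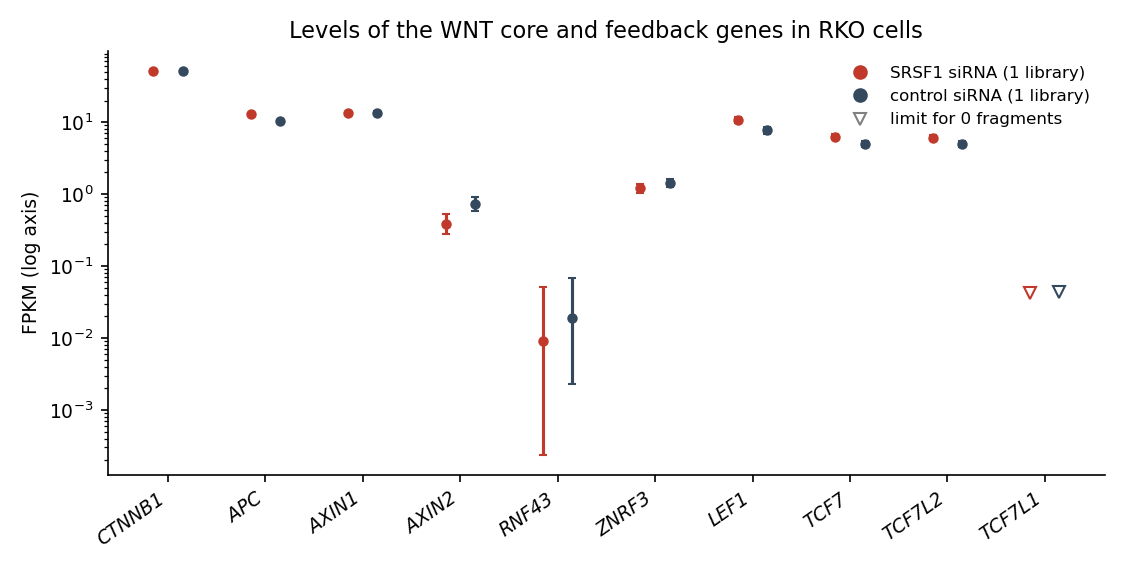
FPKM on a log axis of the 10 genes in the SRSF1 siRNA library (red, left of each pair) and the control siRNA library (dark, right), with exact 95% Poisson intervals of the fragment counts. CTNNB1 stands at 51.4 and 51.5 FPKM, and the open triangles give the level that 3 fragments would give for TCF7L1, which had none.

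CTNNB1 encodes beta-catenin, which serves both as the pathway's transcriptional activator and as a link of cadherins to the actin cytoskeleton. It had 51.4 FPKM (4621 fragments) in the SRSF1 siRNA library and 51.5 FPKM (4494 fragments) in the control siRNA library. The 95% counting interval of the ratio ran from 0.957 to 1.04, so a difference of more than a few percent was not seen between these libraries. The gene lies on the plus strand of chromosome 3, from 41194741 to 41260096 in GENCODE 29 on GRCh38. These coordinates differ from those of hg19, the build named in the submitters' processing notes, and serve here only to locate genes.

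In the destruction complex, the scaffold AXIN1 (chromosome 16) had 13.3 FPKM in the SRSF1 siRNA library and 13.5 FPKM in the control siRNA library, a ratio of 0.984 (0.907 to 1.07). APC, which binds beta-catenin and AXIN proteins, had 12.9 FPKM on 3335 fragments in the SRSF1 siRNA library, against 10.3 FPKM on 2585 fragments in the control siRNA library. The APC ratio was 1.25 (1.19 to 1.32), the narrowest interval of the 4 genes above 1. The gene lies on the plus strand of chromosome 5, from 112707498 to 112846239. The log2(FPKM + 1) difference of APC, SRSF1 siRNA minus control siRNA, was 0.30, and 7.47% of all genes tested had a higher one.

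AXIN2, the WNT-induced paralog of AXIN1, was low in both libraries, with 0.387 FPKM (41 fragments) in the SRSF1 siRNA library and 0.730 FPKM (75 fragments) in the control siRNA library. Its ratio was 0.530 (0.353 to 0.786), and the Poisson intervals of its levels, 0.278 to 0.525 and 0.574 to 0.915 FPKM, did not overlap. Its mean lay under 1 FPKM, so AXIN2 is not among the genes tested, and its log2(FPKM + 1) difference of -0.32 understates the ratio. The excess of AXIN1 over AXIN2 in FPKM was 34.3 times in the SRSF1 siRNA library and 18.4 times in the control siRNA library. AXIN2 is on chromosome 17, minus strand, 65528563 to 65561647, and 25.2% of its exon bases are shared with the protein-coding annotation AC004805.1 on the same strand, so its value is uncertain.

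Of the receptor-removing ligases, only ZNRF3 (chromosome 22) was measurable. It had 1.21 FPKM (193 fragments) in the SRSF1 siRNA library and 1.44 FPKM (223 fragments) in the control siRNA library. Its ratio of 0.840 had an interval that included 1 (0.689 to 1.02). ZNRF3-AS1, the annotated antisense RNA of the gene, was listed at 0 in both libraries.

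RNF43 had 1 fragment in the SRSF1 siRNA library and 2 in the control siRNA library (0.0092 and 0.019 FPKM), under the floor of 3 fragments, so no fold is given. RNF43 is on chromosome 17, minus strand, 58352500 to 58417595, and lies 345 kb from SRSF1, which is on the same strand. In GENCODE 29, 57.6% of its exon bases are shared with AC004687.2 on the same strand and 20.3% with the antisense RNA TSPOAP1-AS1, so reads could have been assigned elsewhere.

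Among the nuclear factors, LEF1 (minus strand of chromosome 4, 108047545 to 108168956) had the largest measured difference of the 10 genes on the log2(FPKM + 1) scale, 0.44. It had 10.8 FPKM on 465 fragments in the SRSF1 siRNA library, against 7.73 FPKM on 322 fragments in the control siRNA library. The ratio was 1.40 (1.21 to 1.62), and 2.94% of all genes tested had a higher difference. LEF1-AS1, which overlaps LEF1 on the opposite strand, had 1 and 3 fragments in the SRSF1 siRNA and control siRNA libraries.

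TCF7, which encodes TCF1, a factor best known from T cells and also a pathway target, had 6.31 FPKM (499 fragments) in the SRSF1 siRNA library and 4.98 FPKM (382 fragments) in the control siRNA library. Its ratio was 1.27 (1.11 to 1.45). TCF7L2, which encodes TCF4, the main TCF of the intestinal epithelium, had 6.07 FPKM (617 fragments) in the SRSF1 siRNA library and 4.96 FPKM (489 fragments) in the control siRNA library. Its ratio was 1.22 (1.09 to 1.38). The intervals of LEF1, TCF7 and TCF7L2 overlap, so the size of the difference cannot be ranked among them.

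TCF7L1, which encodes TCF3, mostly a repressor of WNT targets, had no fragment in either library. For its longest GENCODE 29 transcript of 2968 bases, 3 fragments would give 0.042 FPKM in the SRSF1 siRNA library and 0.044 FPKM in the control siRNA library, so a level up to these values is allowed by counting error.

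Summed over the family, TCF/LEF transcripts made 23.2 FPKM in the SRSF1 siRNA library and 17.7 FPKM in the control siRNA library, a ratio of 1.31. The uncertainty of the TCF7 level, from its overlap with SKP1, carries into this sum and its shares. The make-up of the sum was similar: LEF1 gave 46.7% of it in the SRSF1 siRNA library and 43.7% in the control siRNA library, TCF7 gave 27.2% and 28.2%, and TCF7L2 gave 26.2% and 28.1%. The FPKM of CTNNB1 was 2.22 times the TCF/LEF sum in the SRSF1 siRNA library and 2.92 times in the control siRNA library.

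**Figure D2:**
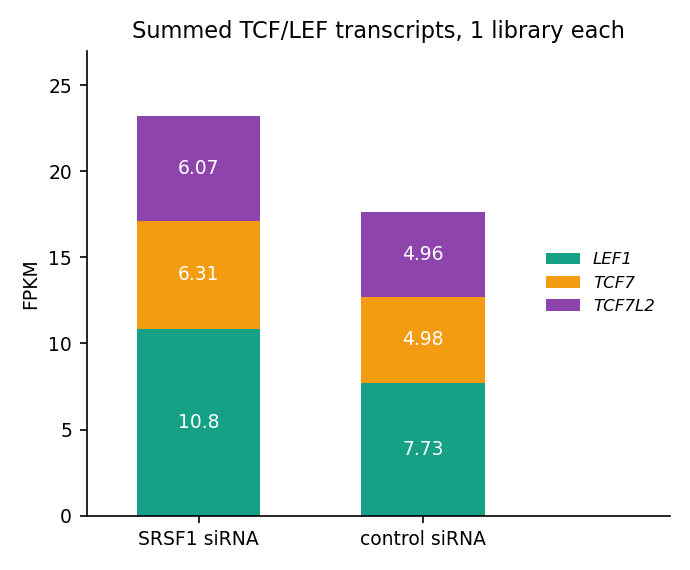
Stacked FPKM of LEF1, TCF7 and TCF7L2 in the SRSF1 siRNA library (left) and the control siRNA library (right), 1 library each. Each of the 3 segments is taller on the left, and the sums are 23.2 and 17.7 FPKM.

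**Figure D3:**
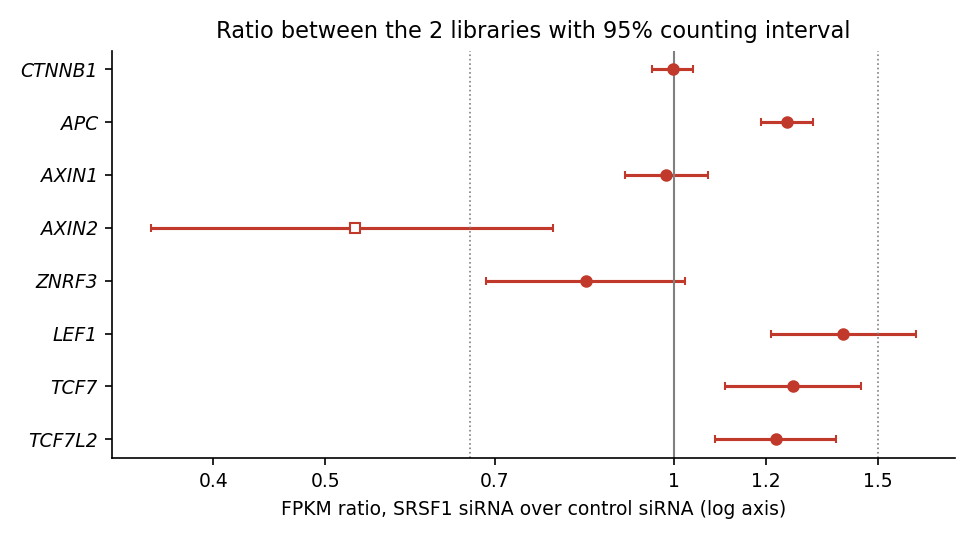
FPKM ratio on a log axis, SRSF1 siRNA over control siRNA, with exact 95% counting intervals; dotted lines mark ratios of 1.5 in either direction, and the open square is AXIN2, which lay under a mean of 1 FPKM. The intervals of APC, LEF1, TCF7 and TCF7L2 lie above 1, that of AXIN2 lies below it, and those of CTNNB1, AXIN1 and ZNRF3 include it.

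The 2 libraries were compared over the 11274 genes whose FPKM averaged 1 or more, called tested here, among them 7 of the 10 WNT genes, with AXIN2, RNF43 and TCF7L1 below that level. None of the 7 was at least 1.5-fold higher or lower on the log2(FPKM + 1) scale, where 1.22% of all genes tested were higher and 4.30% lower. None was 2-fold different either, where 0.284% of all genes were higher and 0.435% lower. Few genes passed these limits, so a count of 0 among 7 is near the background. The median difference of the 7 was 0.25, beside -0.06 over all genes tested, whose SD was 0.29. Over all 10 genes the median was -0.0018, so it depends on the low members. These include TCF7L1, whose difference of 0 stands for no fragment in either library, and RNF43, on 1 and 2 fragments. The median over all 10 is thus not a measured lack of difference.

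The counting interval of the ratio lay above 1 for 4 of the 7, against 19.5% of all genes tested, and below 1 for none of the 7, against 34.5%. The 4 were APC, LEF1, TCF7 and TCF7L2. An interval that excludes 1 compares these 2 libraries and not the treatments, and many genes passed in each direction. The 7 genes were listed with earlier results of these data known, and a share among 7 is imprecise.

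**Figure D4:**
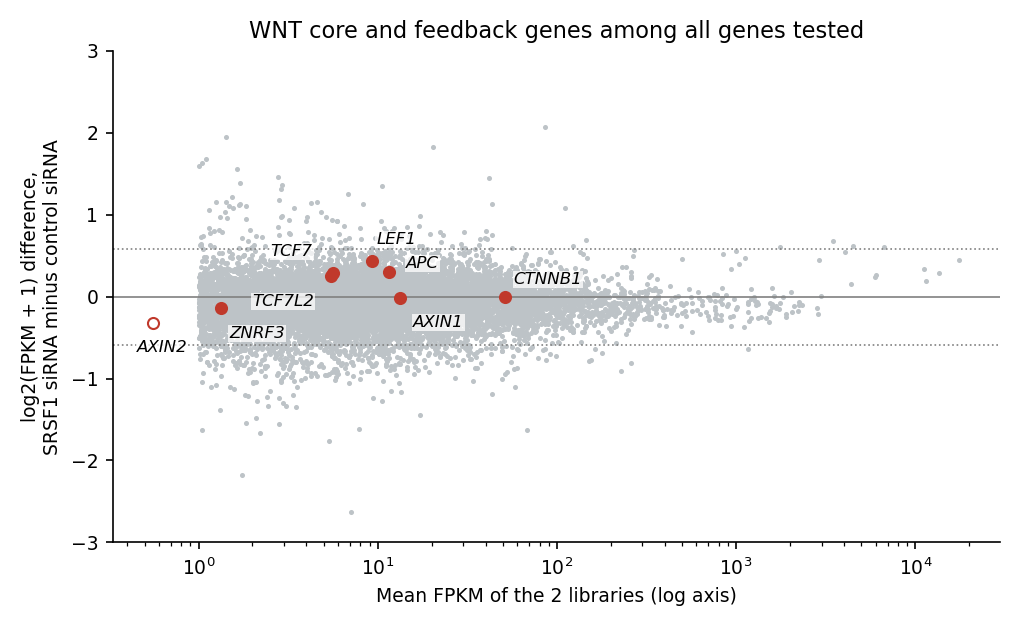
SRSF1 siRNA minus control siRNA difference on the log2(FPKM + 1) scale against mean FPKM on a log axis for the 11274 genes tested (grey), with the 7 WNT genes among them (red) and AXIN2 (open circle); dotted lines mark 1.5-fold. LEF1, APC, TCF7 and TCF7L2 lie in the upper part of the cloud, and on this scale the 7 red genes and AXIN2 lie between the dotted lines.

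The rest of the pathway was read from 9 lists of 133 genes by role, of which 65 were tested. Of these 65, FZD6 rose and CBY1 and CCND1 fell by at least 1.5-fold, that is 1 higher and 2 lower, shares near those of all genes. The median difference was 0.02. The counting interval lay above 1 for 23 of the 65, beside 19.5% of all genes tested, and below 1 for 20, beside 34.5%.

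On the ligand side the cells expressed little. None of the 19 WNT ligand genes reached a mean of 1 FPKM and 12 were at 0 in both libraries. WNT3 was the highest, at 0.375 FPKM in the SRSF1 siRNA library and 0.696 FPKM in the control siRNA library (ratio 0.539, 0.333 to 0.857), and WNT2B had 0.187 and 0.402 FPKM. For ligand secretion, the carrier WLS had 20.0 FPKM in the SRSF1 siRNA library and 22.1 FPKM in the control siRNA library, and the acyltransferase PORCN had 0.560 and 1.10 FPKM (ratio 0.511, 0.317 to 0.808), under the level for testing. WNT3, WNT2B and PORCN, like AXIN2, were thus lower on few fragments, for these genes 11 to 57 in a library. Other WNT pathway genes under a mean of 1 FPKM did not all lie lower, and some were above their control level. Of 7 R-spondin and LGR receptor genes, which counter RNF43 and ZNRF3, only LGR4 was tested, at 1.37 FPKM in the SRSF1 siRNA library and 1.36 FPKM in the control siRNA library, and RSPO2 had 1 fragment in all.

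Of 16 receptor and co-receptor genes 9 were tested, with a median difference of 0.01, and 3 were at 0 in both libraries. The Frizzled receptor FZD6, often reported to act outside the beta-catenin branch, rose to 37.0 FPKM in the SRSF1 siRNA library, against 24.3 FPKM in the control siRNA library (ratio 1.52, 1.44 to 1.61). Its log2(FPKM + 1) difference of 0.59 only just passed the 1.5-fold rule. RYK, a co-receptor with a WIF domain, was at 1.10 times (1.03 to 1.17). Of 16 secreted and surface inhibitors 12 were at 0 in both libraries and 2 were tested. These were the DKK co-receptors KREMEN2, at 0.609 times (0.463 to 0.797), and KREMEN1, at 1.08 times (0.840 to 1.40).

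Among 23 tested genes of Dishevelled and beta-catenin turnover, none reached 1.5-fold, and the median difference was 0.06. Their differences ran from -0.42 to 0.26. The ubiquitin ligase subunits CUL1 and SKP1, which act with beta-TrCP, had the highest levels and were at 1.12 times (1.09 to 1.16) and 0.965 times (0.934 to 0.997). Both serve many other substrates.

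Of 17 tested nuclear cofactors and TCF corepressors, CBY1 fell to 11.4 FPKM in the SRSF1 siRNA library, against 22.0 FPKM in the control siRNA library (ratio 0.517, 0.455 to 0.588). CBY1 encodes Chibby, which binds beta-catenin, competes with TCF/LEF proteins for it and also acts at the ciliary base. An antisense RNA covers 44.8% of its exon bases in GENCODE 29, and the strand setting is not given in the sources used here, so the value is uncertain. AES, a short Groucho protein, was at 1.08 times (1.01 to 1.15) and TBL1XR1, a corepressor exchange factor, at 1.18 times (1.14 to 1.22).

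Of the adherens junction partners 3 of 8 were tested, and the intervals of all 3 lay above 1, as did 19.5% of those of all genes tested. The listed cadherin genes were not among them: CDH1 and CDH2 were at 0 in both libraries and CDH3 had 1 fragment in each. CTNNA1, alpha-catenin, had 103 FPKM in the SRSF1 siRNA library and 97.7 FPKM in the control siRNA library. VCL, vinculin, had 16.7 and 11.3 FPKM (ratio 1.48, 1.38 to 1.58), and its difference of 0.53 in log2(FPKM + 1) lay under the 1.5-fold rule.

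The usual WNT target genes did not lie on one side. Of 21 listed 9 were tested, with a median difference of -0.10. Of their intervals 3 lay above 1 and 4 below, beside 19.5% and 34.5% over all genes tested. CCND1, the G1 cyclin D1, fell to 26.1 FPKM in the SRSF1 siRNA library, against 60.9 FPKM in the control siRNA library (ratio 0.429, 0.410 to 0.449), the largest difference of the 65 tested genes. JUN, an AP-1 subunit, was at 0.904 times (0.886 to 0.922) and FOSL1, another AP-1 subunit, at 1.24 times (1.18 to 1.31). Among the targets that the pathway uses as its own regulators, LEF1 and TCF7 lay above their control levels and AXIN2, on few fragments, below its own. The interval of ZNRF3 included 1, and RNF43 was too low for a fold.

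**Figure D5:**
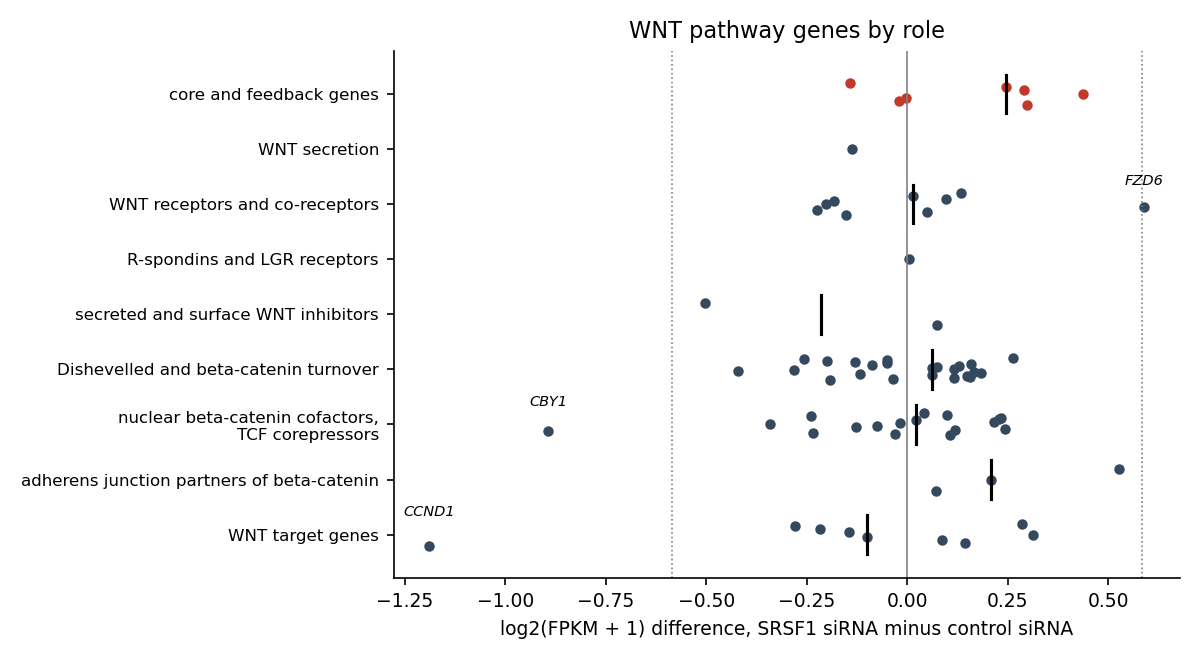
SRSF1 siRNA minus control siRNA difference on the log2(FPKM + 1) scale for each tested gene by role, with the 7 tested core and feedback genes in red, medians as black bars and dotted lines at 1.5-fold; vertical spread within a row has no meaning. FZD6, CBY1 and CCND1 lie past the dotted lines.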

How the data were processed

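RNA of RKO cells was sequenced from 1 SRSF1 siRNA and 1 control siRNA library, grouped by the sample labels. The authors deposited 1 FPKM value per gene and library. Per the submitters' processing notes, reads were processed with Bowtie 0.12.2 and build hg19. Counting tool, annotation and strand setting were not given in the sources used here. Read numbers came from the authors' deposited mapping summaries. Differences were taken in log2(FPKM + 1) and ratios from the FPKM without a pseudocount. Library totals and the smallest whole counts that fit the FPKM were recovered for 99.95% of 16235 genes above 0 in both libraries (relative tolerance 2e-12), and true counts may be whole multiples. Ratio intervals are exact Clopper-Pearson 95% intervals conditional on the sum of counts. The steps were tested on simulated data. With 1 library per group there is no test between treatments. The alternatives were another pseudocount, other filters, other scalings and removal of a transcript length trend (lowess, span 0.3, statsmodels 0.14.6, Python 3.11.15, scipy 1.17.1). The genes and lists were chosen with earlier results of these data known. Named genes were all 10, SRSF1, and in each list up to 4 past 1.5-fold and the 2 with the highest mean. A listed leukocyte marker is not reported here.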

Additional observations from a re-analysis of the deposited data

How the results depend on the processing

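No paired analysis was possible because each group held 1 library. Among the core and feedback genes that passed the filter of each setting, the counts past 1.5-fold and past 2-fold were 0 in each direction under all 6 alternatives: a pseudocount of 0.1, no filter, a mean FPKM of at least 5, columns rescaled to a fixed sum, quantile normalization and removal of the length trend. The 4 counting intervals above 1 were the same number when counts were raised to the multiple nearest the annotated transcript length. APC, LEF1, TCF7 and TCF7L2 kept positive differences under all 6, of 0.27 to 0.36, 0.44 to 0.50, 0.29 to 0.37 and 0.25 to 0.33, and AXIN2 was negative under the 5 that gave it a value (-0.77 to -0.26). With a pseudocount of 0.1 its -0.77 lies past 1.5-fold, but it is not in the counts there because its mean is under 1 FPKM. With no filter the median of the core and feedback genes was -0.0018, against 0.25, but this takes in TCF7L1 at 0 without a fragment. With columns rescaled to a fixed sum, 2 of 72 other WNT genes were at least 1.5-fold higher and 4 lower, against 1 and 2 of 65. Over all genes tested in that setting, 2.07% were higher and 6.42% lower. Under quantile normalization 2 of 65 were higher, beside 1.92% of all genes tested. With a pseudocount of 0.1, 3 of 65 were lower, beside 7.15% of all genes tested. Such small counts are near the shares of all genes. CTNNB1 and AXIN1, within 0.05 of 0 throughout, changed sign under 2 and 1 alternatives. Depth limits AXIN2, RNF43 and TCF7L1, and the spread between cultures is unknown.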
